A study of Homo sapiens with 6 samples.

Results

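The zinc finger cluster of 19p12 and the adjoining 19p13.11 is a run of closely related zinc finger genes on the short arm of chromosome 19, next to the centromere. A list of 35 of its genes was matched to the gene symbols of the count files, and all 35 were found among 60609 annotated genes. The 28 genes with a raw total of at least 30 counts over the 6 libraries were taken as the expressed members, and all 28 passed the filter on low counts. The other 7 are described at the end of the account of levels. Poly(A) RNA was sequenced from K-562 cells, an established human leukaemia line with erythroid features. In both groups the endogenous EP400 gene, which encodes the ATPase and scaffold of the TIP60 chromatin complex, carried a C-terminal degradation tag, and every library came from cells given 500 nM dTAGV-1, the molecule that degrades the tagged protein, for 24 h. The WT group (n = 3) expressed wild-type EP400 from the AAVS1 safe-harbour locus, and the Delta-TRRAP group (n = 3) expressed from the same locus EP400 without the segment that attaches the TRRAP subunit. The study's methods describe one clone per complemented line, so clone and genotype cannot be told apart, and p-values measure the spread between replicates of a line.

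Most proteins of this cluster pair a KRAB domain with a long array of C2H2 zinc fingers. The fingers read DNA sequence, often within transposable elements, and the KRAB domain recruits TRIM28 (also called KAP1), which in turn brings the histone H3 lysine 9 methyltransferase SETDB1 and other silencing factors. The family grew by tandem duplication in primates, and 2 of its best known products are ZNF91, which represses SVA retrotransposons, and ZNF93, which represses a subset of LINE-1 elements. For most other members no target is well established.

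Many promoters of these genes share parts of a layout, and the stretches just upstream of the start sites are shown for members that moved in opposite directions. Whether promoter sequence bears on the direction was not tested. RefSeq promoters (GRCh38.p14, 250 bases before to 50 after the start) were matched by symbol for 25 of the 28 members, all but ZNF253, ZNF738 and ZNF728. The first 4 sequences below are the 100 bases before the start of the 4 members with the largest rises among those with a promoter, and the last 4 are those of the 4 members with the largest falls. Each is written 5′ to 3′ on the strand of the gene, and capitals mark the words CCAATCAG and CTTCCGG.

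ZNF737 (chr19:20565782-20565881, minus strand): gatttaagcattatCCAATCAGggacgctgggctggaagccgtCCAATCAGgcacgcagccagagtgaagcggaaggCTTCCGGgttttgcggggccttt
ZNF91 (chr19:23395472-23395571, minus strand): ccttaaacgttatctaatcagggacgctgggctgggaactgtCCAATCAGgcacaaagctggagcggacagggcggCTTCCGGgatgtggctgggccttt
ZNF730 (chr19:23116925-23117024, plus strand): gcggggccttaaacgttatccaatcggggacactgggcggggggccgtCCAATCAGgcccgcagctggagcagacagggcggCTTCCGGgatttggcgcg
ZNF90 (chr19:20077900-20077999, plus strand): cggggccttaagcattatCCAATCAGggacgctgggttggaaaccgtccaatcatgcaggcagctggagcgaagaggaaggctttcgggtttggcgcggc
ZNF714 (chr19:21082103-21082202, plus strand): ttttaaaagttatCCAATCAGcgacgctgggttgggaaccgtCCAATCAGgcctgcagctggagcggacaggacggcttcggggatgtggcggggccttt
ZNF257 (chr19:22052384-22052483, plus strand): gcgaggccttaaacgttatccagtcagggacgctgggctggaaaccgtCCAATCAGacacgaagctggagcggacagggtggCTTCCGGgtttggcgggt
ZNF708 (chr19:21329411-21329510, minus strand): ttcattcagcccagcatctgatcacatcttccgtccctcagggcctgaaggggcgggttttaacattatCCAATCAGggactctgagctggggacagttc
ZNF675 (chr19:23687213-23687312, minus strand): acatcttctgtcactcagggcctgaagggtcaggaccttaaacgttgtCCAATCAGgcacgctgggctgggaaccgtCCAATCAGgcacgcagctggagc

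The word CCAATCAG, the core of a CCAAT box, was present in 25 of 25 member promoters, against 4.16% of 27305 RefSeq promoters of the same length. The word CTTCCGG, which matches the core bound by ETS factors, was present in 18 of 25, against 10.7% of all promoters, 74 of 183 promoters of zinc finger genes on the rest of chromosome 19 and 72 of 195 on other chromosomes. Both words were searched after the sequences had been read, on both strands, and do not overlap each other. Among zinc finger genes elsewhere, CCAATCAG was in 30 of 183 promoters on the rest of chromosome 19 and in 26 of 195 on other chromosomes. The layout was also shared. In 13 promoters a second CCAATCAG began 28 or 29 bases after the first, and in 16 of the 18 promoters with CTTCCGG that word began 34 bases after the last CCAATCAG, while in ZNF708 and ZNF493 it began 63 bases after it. In ZNF708 and ZNF675 CTTCCGG lay downstream of the start, outside the stretch shown. Among members called higher with a promoter, 6 of 6 held CCAATCAG and 5 of 6 held CTTCCGG. Among members that fell, 12 of 12 held CCAATCAG and 9 of 12 held CTTCCGG. The other words searched were about as uncommon as in all promoters, as far as 25 promoters can show. The E-box CACGTG was in none of the 25 member promoters (7.44% of all promoters), the E2F-like word GGCGGGAA was in 1 (3.18%), the ZNF143-like word ACTACAAT was in none (0.670%), and TATAAA was in 3 (11.95%). The GC content of member promoters had a median of 56%, close to the 58.3% of all promoters, and they held a median of 10 CpG dinucleotides, against 14.

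The encoded proteins were 375 to 1280 residues long, with 5 to 36 zinc fingers matched by pattern (median 13), and 25 of 28 matched a KRAB pattern. ZNF208, with 36 fingers, and ZNF91, with 31, were the longest arrays among the 28. The coding sequence of each member was 58.0% to 87.5% identical to that of its closest relative in the list (median 82.0%). Since only uniquely mapping reads had been counted, the share of 75-base words in each member's exons that occur elsewhere in the genome was computed. It had a median of 1.2% and was under 2.5% for 24 of 28 members. The exceptions were ZNF66 with 15.8%, ZNF208 with 7.34%, ZNF91 with 6.02% and ZNF90 with 3.64%, and their counts leave out reads from those stretches. Another gene on the same strand shared 20.5% of the exon length of ZNF208 and 18.3% of that of ZNF738, so their counts are less certain. Smaller shares were found for other members, among them the called ZNF90 (7.24%) and ZNF730 (5.49%).

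Library totals were 35076835 to 42616061 counts in genes. Mitochondrial genes took 3.18% to 3.71% of a WT library and 5.07% to 6.24% of a Delta-TRRAP library. EP400 messenger did not pass the test (log2 fold change 0.14 ± 0.11 SE, edgeR adjusted p = 0.272). The labels call the cells lymphoblasts, but all 8 lymphoid markers examined had a mean normalized count under 40, and MS4A1 was at 0 in every library. In contrast, 9 of 10 erythroid markers had a mean above 100 in both groups. The summed erythroid markers ranged from 35215 to 38262 in WT and from 58097 to 62904 in Delta-TRRAP. ALAS2, the first enzyme of erythroid heme synthesis, went from a mean of 1252 to 16508, whereas GATA1 (log2 fold change −0.18) and HBG1 (−0.41) fell and HBG2 did not pass (−0.05, edgeR adjusted p = 0.744). The sum of 8 fibroblast markers went from 35.9 to 57.5 in WT to 908 to 953 in Delta-TRRAP, almost all of the latter COL1A2, while LUM and PDGFRA were at 0. The part of these shifts in the results was not tested. Normalized counts are relative to the total of each library after TMM scaling. In bulk RNA fewer expressing cells and less RNA per cell cannot be told apart.

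Among the 28 members, 7 were called higher in Delta-TRRAP and none lower, where a call needed an edgeR quasi-likelihood p, adjusted by the Benjamini-Hochberg method over 19114 genes, no higher than 0.01 together with a change of 2-fold or more. The called members were ZNF737, ZNF91, ZNF730, ZNF90, ZNF85, ZNF208 and ZNF728. Over all tested genes 22.6% were called, 16.5% higher and 6.08% lower. For the count of 0 lower members, DESeq2 and limma-voom also called 0, and 13 members had a negative fold change with an unadjusted edgeR p under 0.05. Past the adjusted p at any fold, 11 members rose (30.7% of all genes did) and 12 fell (27.6% of all genes), and 5 did not pass. The number that fell was 7 under library size scaling, 8 under upper-quartile scaling and 9 with a minimum mean of 50. The 3 libraries of one group lay apart from the 3 of the other for 25 of 28 members, against 71.1% of all tested genes. The median log2 fold change of the members was −0.05, against 0.03 for all genes.

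**Figure D1:**
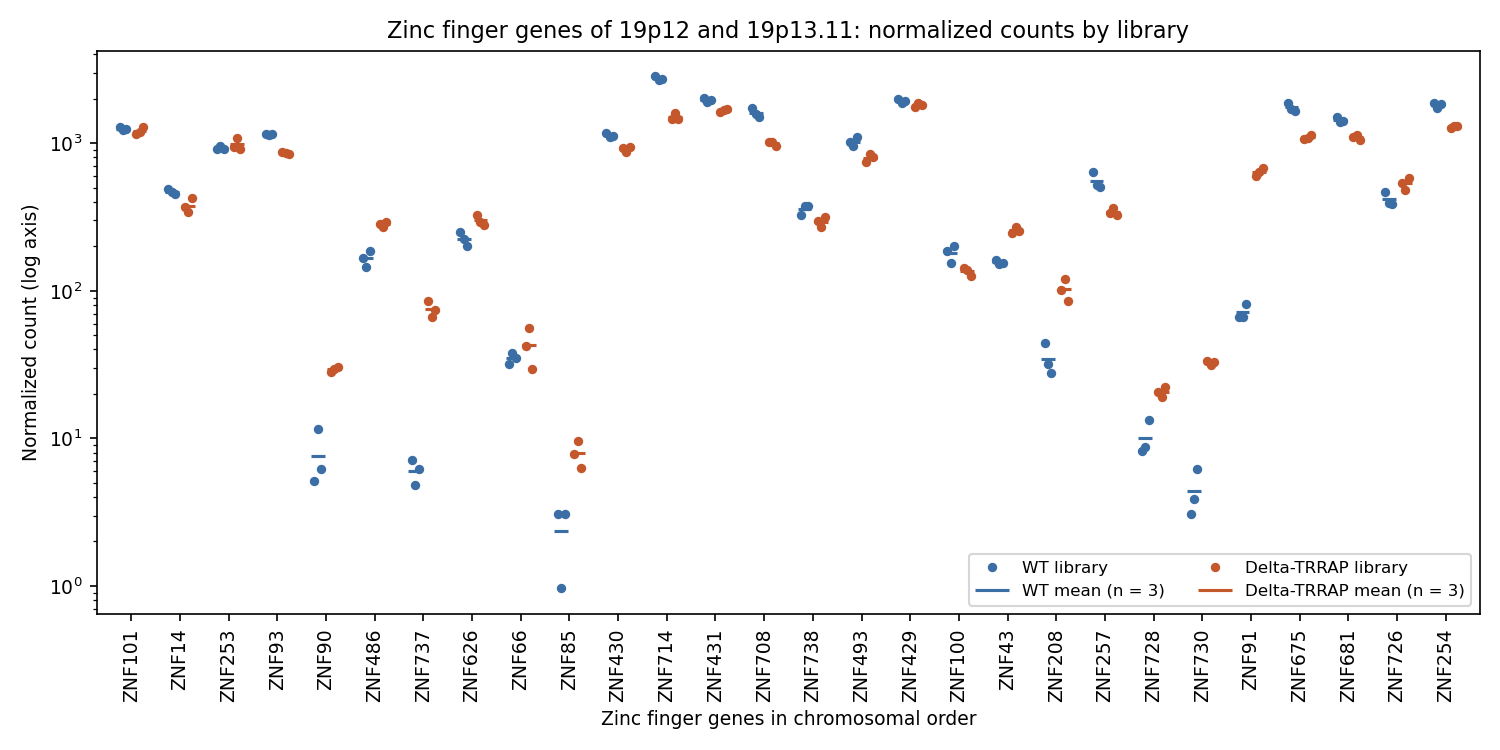
Normalized count of each of the 28 members in each library (points; log axis) with the mean of each group (bars, n = 3), in chromosomal order. ZNF91 lay between 66.6 and 81.1 in WT and between 597 and 678 in Delta-TRRAP, while ZNF714, the member with the largest fall, moved from a mean of 2747 to 1508.

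ZNF91 gave the largest rise in absolute terms. Its normalized counts were 66.6, 66.6 and 81.1 in the WT libraries and 597, 637 and 678 in the Delta-TRRAP libraries. The mean went from 71.4 ± 8.38 to 637 ± 40.4 (SD, n = 3), a 9.07-fold difference (log2 fold change 3.18 ± 0.10 SE, edgeR adjusted p = 6.49e-13). The groups were far apart, and ZNF91 was the sole member with a mean above 100 to be called.

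ZNF737 had the largest fold change. It was close to silent in WT, with 7, 5 and 6 raw counts, and reached 87, 69 and 70 raw counts in Delta-TRRAP, a log2 fold change of 3.63 ± 0.25 (12.4-fold, edgeR adjusted p = 5.51e-09). Its nearest relative in coding sequence, ZNF626 (87.2% identical), lies beside it and was already expressed in WT, with normalized counts of 200.2 to 248.9 there and of 281 to 327 in the Delta-TRRAP libraries. The log2 fold change of ZNF626 was 0.44 ± 0.10, past the adjusted p but under the fold threshold.

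ZNF730 held 3, 4 and 6 raw counts in the WT libraries and 34, 33 and 31 in the Delta-TRRAP libraries. The groups did not overlap, and the log2 fold change was 2.89 ± 0.32 (7.41-fold, edgeR adjusted p = 1.00e-06). ZNF90 held 5, 12 and 6 raw counts in WT and 29, 31 and 29 in Delta-TRRAP. Its second WT library was the highest of that group and still less than every Delta-TRRAP library (log2 fold change 1.95 ± 0.31, 3.85-fold, edgeR adjusted p = 4.53e-05).

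ZNF208, the member with the most fingers, had normalized counts of 44.05, 31.8 and 27.7 in WT and 102, 120 and 85.5 in Delta-TRRAP. It rose 3.03-fold (log2 fold change 1.60 ± 0.19, edgeR adjusted p = 2.97e-06), with the 7.34% of repeated exon words and the shared exon stretch given above as limits.

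ZNF728 and ZNF85 were the weakest of the calls and the closest above the minimum raw total. ZNF728 held 8, 9 and 13 raw counts in WT and 21, 20 and 21 in Delta-TRRAP (log2 fold change 1.05 ± 0.30, edgeR adjusted p = 0.00576). ZNF85 held 3, 1 and 3 in WT and 8, 10 and 6 in Delta-TRRAP (log2 fold change 1.73 ± 0.52, edgeR adjusted p = 0.00836). Neither was called by DESeq2, with an adjusted p of 0.0367 for ZNF728 and 0.0554 for ZNF85, and ZNF85 was also lost with no filter on low counts (edgeR adjusted p = 0.0149). ZNF728 lost the call without WT replicate 1 or 2 or Delta-TRRAP replicate 1 or 3, with log2 fold changes of 0.92, 0.94, 1.05 and 0.998. ZNF85 lost it without WT replicate 1, 2 or 3, with 1.95, 1.35 and 1.95, and was no longer tested without Delta-TRRAP replicate 1, 2 or 3. The other 5 called members kept their call in every alternative that tested them.

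A further 4 members rose by less than the fold threshold. They were ZNF486 (log2 fold change 0.79 ± 0.10, edgeR adjusted p = 4.42e-06), ZNF43 (0.74 ± 0.09), ZNF626 (given above) and ZNF726 (0.39 ± 0.09, edgeR adjusted p = 0.000993). The WT libraries of ZNF43 held 152 to 162 normalized counts and its Delta-TRRAP libraries 247 to 268, with no overlap.

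The 12 members that fell did so by less than the fold threshold, to between 55.8% and 86.3% of WT. The largest fall was that of ZNF714, with normalized counts of 2838, 2678 and 2727 in WT and 1460, 1597 and 1466 in Delta-TRRAP. It was at 55.8% of WT (log2 fold change −0.84 ± 0.06, edgeR adjusted p = 3.17e-09), and the lowest WT library stood well above the highest Delta-TRRAP library.

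ZNF708 had 1727, 1568 and 1511 normalized counts in WT and 1023, 1021 and 961 in Delta-TRRAP, 63.6% of WT (log2 fold change −0.65 ± 0.06, edgeR adjusted p = 1.65e-07). ZNF675, which is known to inhibit TRAF6 signalling, had 1879, 1713 and 1654 in WT and 1061, 1090 and 1143 in Delta-TRRAP, 63.8% of WT (log2 fold change −0.65 ± 0.06, edgeR adjusted p = 1.27e-07). ZNF708 and ZNF675 are each other's closest relatives in coding sequence (83.5% identical), and they fell to nearly the same share of WT. ZNF257, whose closest relative is ZNF708, fell to 62.6% of WT (log2 fold change −0.68 ± 0.09).

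The remaining 8 that fell were ZNF254 (log2 fold change −0.47), ZNF93 (−0.40), ZNF100 (−0.38), ZNF681 (−0.37), ZNF493 (−0.34), ZNF14 (−0.30), ZNF430 (−0.28) and ZNF431 (−0.21). ZNF93, the LINE-1 repressor, had tight replicates, with 1151, 1143 and 1150 normalized counts in WT and 866, 857 and 845 in Delta-TRRAP (edgeR adjusted p = 7.36e-06). ZNF93 and its closest relative ZNF90 (81.7% identical) therefore moved in opposite directions. All 12 kept a negative sign in the 14 alternative fits, and 7 of them stayed past the adjusted p in every one.

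The 5 members that did not pass were ZNF101 (log2 fold change −0.03 ± 0.06), ZNF253 (0.11 ± 0.07), ZNF66 (0.33 ± 0.23), ZNF429 (−0.07 ± 0.05) and ZNF738 (−0.27 ± 0.09, edgeR adjusted p = 0.0127). ZNF253 had 911, 956 and 907 normalized counts in WT and 943, 1092 and 914 in Delta-TRRAP, with overlapping groups. ZNF429 had 2005, 1880 and 1942 in WT and 1758, 1876 and 1817 in Delta-TRRAP, a gap between groups too small to pass (edgeR adjusted p = 0.241).

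The direction of change went with the level of expression. Of the 7 members with a mean normalized count under 100, 6 were called higher, all but ZNF66, where 30.8% of all tested genes at that level were. Of the 21 members with a mean of 100 or more, 1 was called higher, where 7.02% of all genes were. Another 12 of them fell at any fold, a count set beside that of other zinc finger genes below. Among the 10 members with a mean of 1000 or more, 8 fell, where 45.9% of all genes at that level did. All 10 had a negative log2 fold change, of which those of ZNF101 and ZNF429 turned positive under upper-quartile and library size scaling and with a minimum mean of 50. The median log2 fold change was 1.73 for members under 100 and −0.39 for those at 1000 or more, against 0.44 and −0.14 for all genes. A member with a low mean could pass the filter through one group alone: ZNF85 and ZNF730 had WT means of 2.37 and 4.36, under the minimum mean of 5. Over the 28 members the Spearman correlation of log2 fold change with mean normalized count was −0.72, and over all tested genes it was −0.29. The points share their libraries, and the level enters both axes, so these are descriptions.

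**Figure D2:**
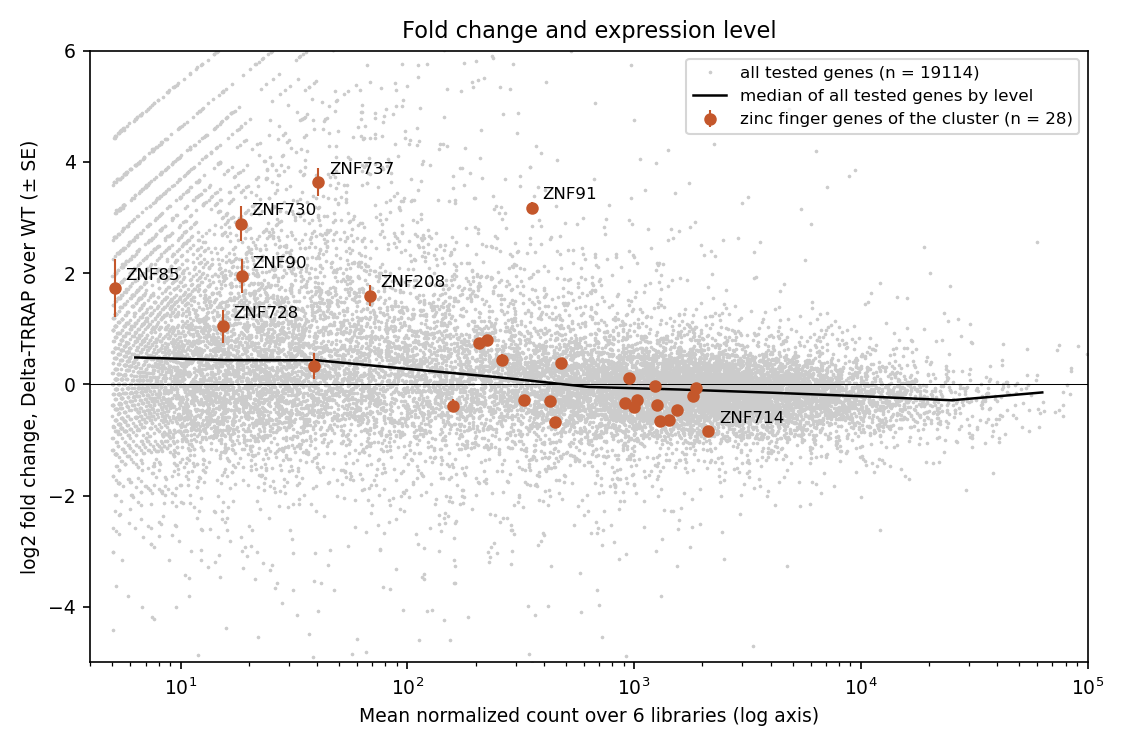
Log2 fold change (Delta-TRRAP over WT) against mean normalized count over the 6 libraries (log axis) for the 28 members (points with SE) and all 19114 tested genes (grey points and median line), with the vertical axis limited to the range drawn. ZNF91, at a mean of 354, lies above the median line, and the 10 members with a mean of 1000 or more lie below 0.

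Zinc finger genes outside the cluster were set beside the members. Of 186 other tested ZNF genes of chromosome 19, 24 were called higher and 9 lower, and of 212 on other chromosomes 24 and 6, beside 7 and 0 of the 28 members. At a mean under 100, 14 of 35 and 16 of 31 of these were called higher, with median log2 fold changes of 0.87 and 1.48, beside 6 of 7 members and a median of 1.73. At a mean of 100 or more the medians were −0.25 on the rest of chromosome 19 and −0.05 on other chromosomes, beside −0.28 for the members. At that level 75 of 151 and 62 of 181 fell at any fold, beside 12 of 21 members. No difference between these sets was tested.

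The summed normalized count of the 28 members was 22267, 20848 and 21232 in the WT libraries and 17382, 17947 and 17805 in the Delta-TRRAP libraries. The mean went from 21449 ± 734 to 17711 ± 294 (SD, n = 3). All 3 Delta-TRRAP sums lay under the 3 WT sums. The 7 called members made up 0.636% ± 0.035 of the sum in WT and 5.11% ± 0.098 in Delta-TRRAP. ZNF91 made up most of that share, at 637 of 905 normalized counts in Delta-TRRAP.

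Per kilobase of exon, the 5 most abundant members were ZNF708, at a mean of 301 normalized counts per kb over the 6 libraries, ZNF253 at 263, ZNF429 at 248, ZNF714 at 216 and ZNF675 at 210. Among these 5, the order in WT was ZNF708 (370 per kb), ZNF714 (279), ZNF675 (258), ZNF429 (257) and ZNF253 (255). The libraries of ZNF714 overlapped those of ZNF675, and those of the last 3 overlapped each other. In Delta-TRRAP their order was ZNF253 (271 per kb), ZNF429 (240), ZNF708 (232), ZNF675 (162) and ZNF714 (153), and other members, such as ZNF101 at 185 per kb, lay above the last 2. The libraries of ZNF429 and ZNF708 overlapped there, as did those of ZNF675 and ZNF714. ZNF253 and ZNF429, which did not pass the test, thus led the Delta-TRRAP order. ZNF91 went from 6.93 to 61.8 per kb. ZNF85 was the lowest of the 28, at a mean of 1.10 per kb.

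The 7 listed genes under the minimum were ZNF506, ZNF682, ZNF492, ZNF98, ZNF676, ZNF99 and ZNF729, with raw totals of 22, 22, 19, 10, 6, 3 and 2 counts, and none was tested. ZNF506 held 2, 1 and 1 raw counts in WT and 8, 7 and 3 in Delta-TRRAP, and ZNF682 held 2, 2 and 0 against 4, 8 and 6. These are the values just under the threshold, beside the 31 counts of ZNF85 and the 92 of ZNF728 just above it. ZNF676, ZNF729, ZNF98, ZNF492 and ZNF99 follow each other along the chromosome and were near 0 in both groups. Repeated words made up 37.6% of the exon words of ZNF98 and 32.1% of those of ZNF492, a pair 92.0% identical in coding sequence, so unique reads undercount them.

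Along the cluster, some runs of neighbouring members moved in one direction. The runs were picked out after the values were seen, and whether neighbours move together was not tested. From ZNF90 through ZNF486, ZNF737, ZNF626 and ZNF66 to ZNF85, 6 members in a row had a positive log2 fold change, and 5 of them rose, all but ZNF66. ZNF85 had a WT mean of 2.37, under the minimum mean of 5, so its direction was largely set by the filter. ZNF90, ZNF737, ZNF66 and ZNF85 had means under 100, a level at which 30.8% of all tested genes were called higher. The members from ZNF430 to ZNF100 were 8 neighbours of which none rose, the 2 that follow, ZNF43 and ZNF208, rose, and ZNF257 after them fell. Beyond the near-silent run lay ZNF728, ZNF730 and ZNF91, all called higher, and the next 2 members, ZNF675 and ZNF681, fell.

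**Figure D3:**
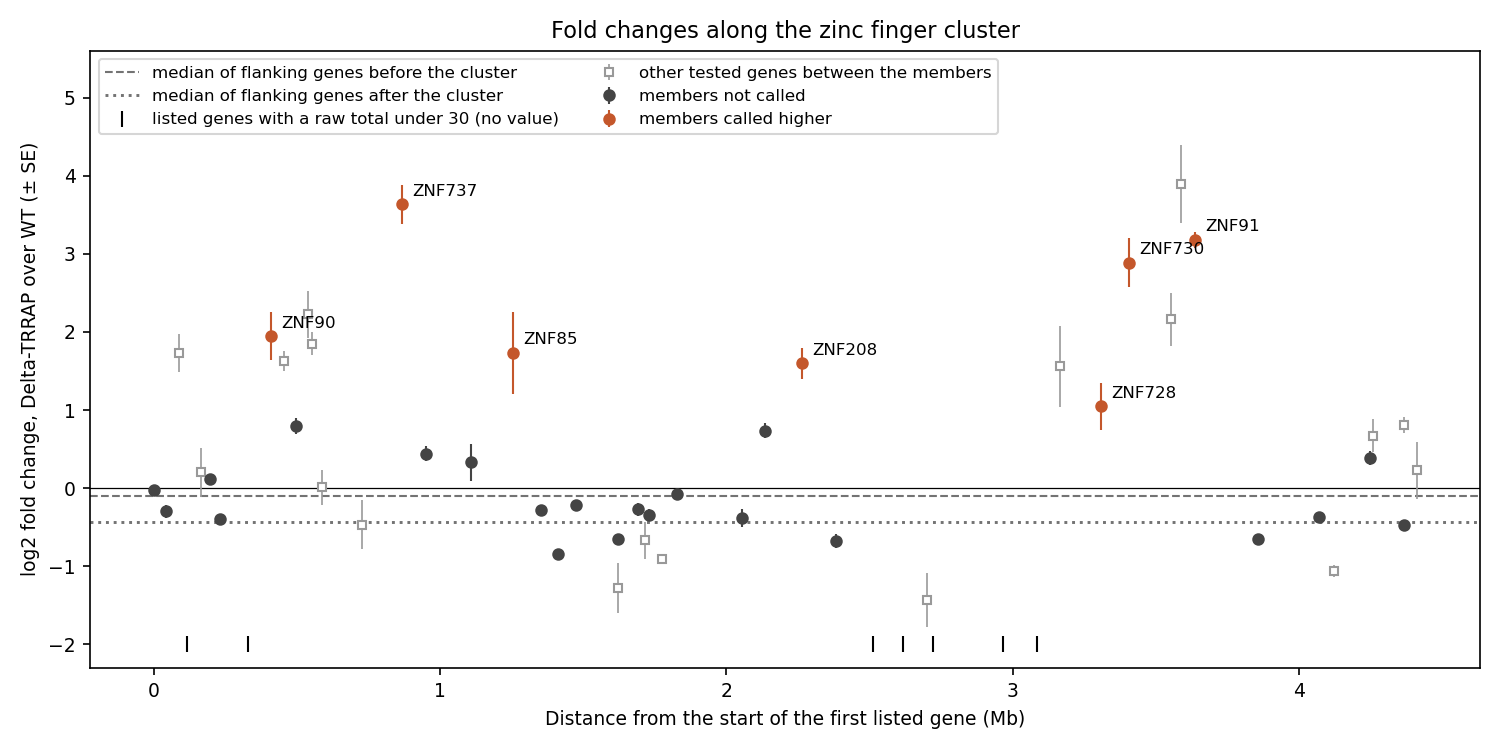
Log2 fold change (± SE) of the 28 members and of the 18 other tested genes between them against distance from the start of the first listed gene, with the medians of flanking genes as horizontal lines and the 7 listed genes without a value as ticks. The 6 members from ZNF90 to ZNF85 all lie above 0, as do ZNF728, ZNF730 and ZNF91, and no member from ZNF430 to ZNF100 does. ZNF85 and ZNF730 passed the filter only through their Delta-TRRAP counts.

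Between the members lie 60 other annotated genes with a count, of which 18 were tested, 6 called higher and 3 lower, where 16.5% and 6.08% of all tested genes were. ZNF724, a zinc finger gene not in the list, lies between ZNF730 and ZNF91 and rose (log2 fold change 2.16 ± 0.34), as did the pseudogene IPO5P1 beside it (3.90 ± 0.50, with at most 3.86 normalized counts in a WT library and at least 22.0 in a Delta-TRRAP library). With ZNF728, ZNF730 and ZNF91, these were the 5 tested genes in a row that were called higher, a run singled out after its values were seen. The WT means of ZNF730, ZNF724 and IPO5P1 were 4.36, 4.98 and 1.63, under the minimum mean of 5. These genes were tested only through their Delta-TRRAP counts, so their direction was largely set by the filter. ZNF723, a further zinc finger gene outside the list, was not called (log2 fold change 1.56 ± 0.52, edgeR adjusted p = 0.0146).

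Of the called neighbours, 3 had a mean of at least 100. The long noncoding RNA gene AC011447.3 had normalized counts of 71.7, 57.9 and 64.7 in WT and 192, 219 and 178 in Delta-TRRAP (log2 fold change 1.63 ± 0.13). AC011447.7, an unclassified transcript inside its span and on its strand, had 80.9, 74.3 and 88.3 in WT and 257, 249.3 and 360 in Delta-TRRAP (1.85 ± 0.15). Both lie on the strand opposite to ZNF486, which rose by 0.79, and each had groups that did not overlap. The pseudogene AC139769.1, between ZNF681 and ZNF726, had 792, 671 and 732 in WT and 328, 341 and 365 in Delta-TRRAP (−1.06 ± 0.08), and lost the call under upper-quartile (−0.96) and library size scaling (−0.93) and with a minimum mean of 50 (−0.99).

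Outside the cluster, genes that are not zinc finger genes and had a mean of at least 100 were taken as flanks. The 75 within 5 Mb before the first member had a median log2 fold change of −0.10, with 3 called higher and 3 lower. The 24 within 10 Mb after the last member, across the centromere, had a median of −0.43, with 2 called higher and 9 lower. Members with a mean of 100 or more, at −0.28, lay between these medians.

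The partners of KRAB proteins were examined as a list of 29 genes, all tested, of which 2 were called lower and none higher, where 6.08% and 16.5% of all tested genes were. Past the adjusted p at any fold, 15 fell and 4 rose, and 10 did not pass. All but SETDB2 had a mean of 1000 or more, a level at which 45.9% of all genes fell. The median log2 fold change was −0.23, against −0.14 for all genes with a mean of 1000 or more. TRIM28, the corepressor bound by the KRAB domain, had normalized counts of 23137, 23508 and 24265 in WT and 15587, 15099 and 15518 in Delta-TRRAP, 66.3% of WT (log2 fold change −0.59 ± 0.05, edgeR adjusted p = 3.22e-08). SETDB1, the methyltransferase recruited by TRIM28, had 1927, 1873 and 2009 in WT and 1898, 1957 and 1834 in Delta-TRRAP, with overlapping groups (−0.005 ± 0.05, edgeR adjusted p = 0.941).

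UHRF1, which directs maintenance DNA methylation, was the gene of the list with the largest fall, with 3377, 3387 and 3635 normalized counts in WT and 1418, 1393 and 1349 in Delta-TRRAP (log2 fold change −1.30 ± 0.05, edgeR adjusted p = 1.24e-11). RESF1, a regulator of SETDB1-dependent retroelement silencing, had 12177, 11958 and 12526 in WT and 5902, 6699 and 5334 in Delta-TRRAP (−1.01 ± 0.07, edgeR adjusted p = 8.04e-09). The RESF1 fold lay at the threshold, and the call was lost without WT replicate 3 (−0.99) and without Delta-TRRAP replicate 1 (−0.998) or 3 (−0.93). Among the histone deacetylase subunits that act with TRIM28, HDAC2 (−0.62), HDAC1 (−0.38), RBBP4 (−0.40) and CHD3 (−0.36) fell, whereas CHD4 did not pass (0.23 ± 0.10, edgeR adjusted p = 0.0573). Of the heterochromatin proteins, CBX3 fell (−0.60) and CBX5 rose (0.32), and CBX1 did not pass (0.13 ± 0.05). In the HUSH complex and its partners, MPHOSPH8 rose (0.40), PPHLN1 fell (−0.37), and TASOR (−0.13 ± 0.06) and MORC2 (−0.20 ± 0.06) did not pass.

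**Figure D4:**
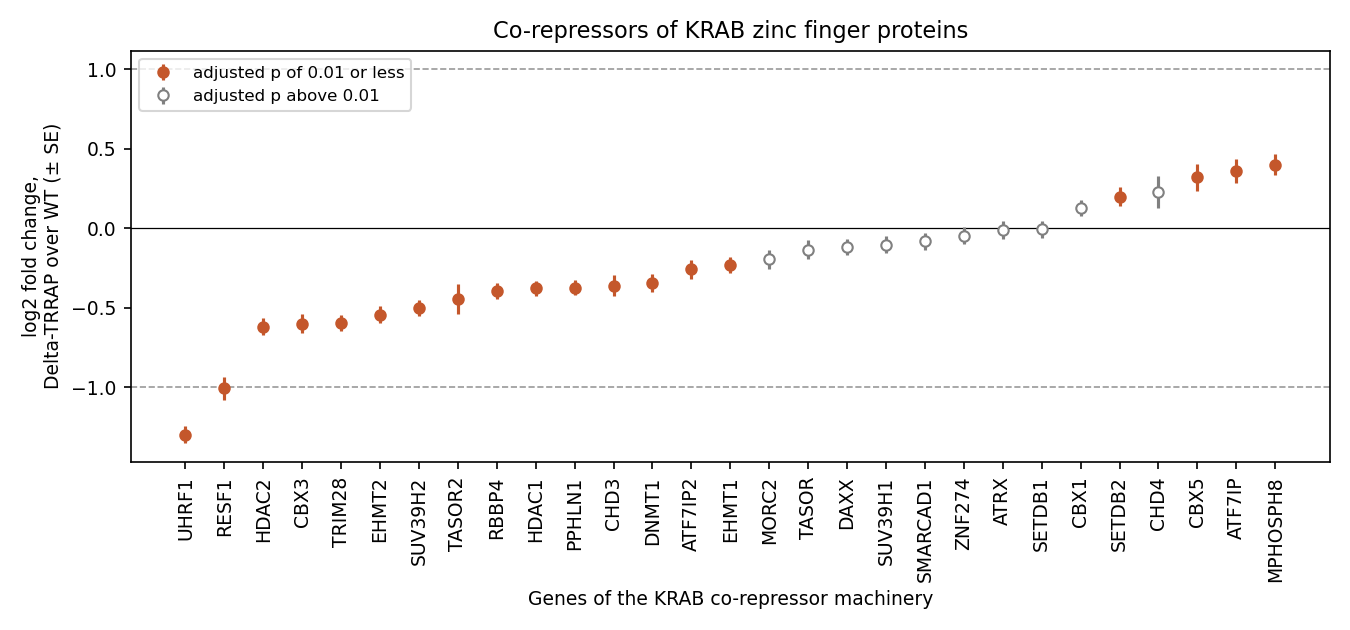
Log2 fold change (± SE, Delta-TRRAP over WT) of the 29 genes of the KRAB co-repressor list in order of value, with filled points past the adjusted p and dashed lines at a fold change of 2. UHRF1 (−1.30) and RESF1 (−1.01) lie past the lower line, and no gene reaches the upper line.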

How the data were processed

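Poly(A) RNA of 3 WT and 3 Delta-TRRAP libraries was analysed. The authors deposited raw counts per gene. Per the study's methods, the reads were placed on hg38 with STAR, kept where they had a single position, and assigned to GENCODE genes in reverse-stranded union mode by HTSeq 2.0.2 (version as in the submitters' processing notes). Reads mapping to several places were left out, which lowers the counts of near-identical genes. A deposited table of normalized signal and the authors' own comparison, with fold changes and adjusted p-values from DESeq2, were not used.

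The test was that of edgeR 4.0.16, run in R 4.3.3 (TMM scaling, quasi-likelihood F test, group as the only term) on the 19114 genes whose normalized counts averaged 5 or more. The Benjamini-Hochberg threshold of 0.01 and the fold change of 2 follow the study's methods. Depth was 35076835 to 42616061 counts per library, and low counts limit the precision of weakly expressed members. Within groups the chi-square per degree of freedom between libraries was 5.43 to 17.5, so none is a duplicate. The edgeR test was checked on simulated counts. Changes were placed only in genes with higher expected counts than ZNF85, ZNF728, ZNF730 and ZNF90, so the check does not cover calls at their level. Positions, exon lengths and exon overlaps came from GENCODE release 44 on GRCh38, a later release than the study used for counting. Promoters came from RefSeq. Words repeated elsewhere in the genome were counted over exons in steps of 1 base.

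Members and gene lists were chosen with earlier results of these data known. Values are printed in every library for called members, the 5 most abundant per kb, members nearest the minimum raw total, TRIM28, SETDB1 and called co-repressors, and called neighbours with a mean of at least 100. Alternatives were DESeq2 1.42.0, limma-voom (limma 3.58.1), other scalings, filters and thresholds, the replicate number as a block, leaving out each library, and a flanking-gene reference. The counts of members past the adjusted p at any fold under each alternative were added after the data had been seen.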

Additional observations from a re-analysis of the deposited data

How the results depend on the processing

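The 7 calls became 5 under DESeq2, 5 with a replicate block and 5 to 6 without any one library. Under the replicate block the 2 lost calls were ZNF85 (adjusted p = 0.0188) and ZNF728 (0.0109), and no other member and neither called co-repressor lost its call. Same-numbered libraries did not deviate together (correlations 0.08, −0.08 and −0.18). These values give no sign that the numbers pair the samples, but they cannot show that samples were not prepared in matched sets. A minimum mean of 50 left 22 members and 2 calls, both higher, and 6 members higher at any fold, 2 called genes between the members and 1964 called genes in all. Fewer genes were tested, and AC139769.1, still tested, fell just under the fold threshold (−0.988). A fold threshold of 1.5 gave 13 called members, 4 of them lower, 5 called co-repressors and 6750 called genes. Co-repressors called were 1 under upper-quartile scaling, library size scaling and a minimum mean of 50, and 1 to 2 without any one library.

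The median of all genes shifted by 0.10 under upper-quartile and by 0.13 under library size scaling, and the median of the members turned positive, to 0.0526 and 0.0845. It was 0.12 relative to the flanking genes of both sides, whose median was −0.17. Those genes all had a mean of at least 100, while 7 of the 28 members did not, so unlike levels were compared. Members with a mean of 100 or more had a median of −0.28, under that of the flanks. The median of the members was −0.21 with a minimum mean of 50 and −0.14 for the 26 members with a raw total of at least 100. It was −0.099 to −0.0375 without any one library. Under library size scaling 12 members rose at any fold and 7 fell, in place of 11 and 12. Under upper-quartile scaling, library size scaling and a minimum mean of 50, signs turned for ZNF101 (0.076, 0.11 and 0.0474), ZNF429 (0.0291, 0.0613 and 0.00072) and SETDB1 (0.0959, 0.13 and 0.0675), and RESF1 lost its call (−0.91, −0.87 and −0.93). Without any one library, ZNF101 was at −0.0654 to 0.00579, positive without Delta-TRRAP replicate 1, and SETDB1 at −0.0365 to 0.0213, positive without WT replicate 3 or Delta-TRRAP replicate 3. The causes were not tested. Low counts limit ZNF85, ZNF728, ZNF730, ZNF90 and ZNF737, whose WT means rest on 2.37 to 10.1 normalized counts.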
